A study of Hordeum vulgare with 18 samples.

Results

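The genes described here are the 5 barley genes that the study named as encoding isopropylmalate dehydrogenase, HORVU3Hr1G059060, HORVU2Hr1G124400, HORVU7Hr1G066450, HORVU3Hr1G000570 and HORVU3Hr1G069300, out of 43050 genes in the count tables. They were taken by ID, and the study had selected them on the difference of M4 from GP and M5 under HN, so that this difference is given below as a description without a test. The tests use the LN libraries, LN against HN, and GP against M5. Those of LN against HN and of GP against M5 share HN libraries with that selection. All 5 stood among the 19021 genes with more than 1 count per 1000000 reads on genes (CPM) in at least 3 of 18 libraries. HORVU3Hr1G000570 and HORVU3Hr1G069300 exceeded 1 CPM in 12 libraries each, those of 2 genotypes, and passed through these alone. Where such a copy is compared with the genotype in which it is near 0, the filter had fixed a difference beforehand, so that its values are given as a description and it is left out of the counts of genes tested. The IDs place 3 copies on chromosome 3H, 1 on 2H and 1 on 7H.

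Isopropylmalate dehydrogenase is the NAD-dependent enzyme of the leucine branch of branched-chain amino acid synthesis in the plastid. It oxidizes isopropylmalate, and the product loses carbon dioxide to become the keto acid that a transaminase turns into leucine. In Arabidopsis the family has a member that acts mainly in the chain elongation of methionine for glucosinolates, beside members of leucine synthesis. No division of roles is given here for the barley copies, which are therefore ordered by their reads.

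Leaves came from 3 wild-type genotypes, the European cultivar Golden Promise (GP), Laanaceur (M4) and Oussama (M5), of which the last pair are Moroccan. Plants received 5 mM nitrate (HN) or 0.5 mM nitrate (LN), and all were given an isotope label of nitrogen before sampling. There were 3 libraries in each of the 6 groups, given as biological replicates, each from the leaves of 1 to 2 plants. The tissue was labelled as aerial and the plants as 14 days old, although harvest dates run from November to April for 1 planting date. The replicate numbers of HN and LN differ in part in GP and M4, and a number stands for a harvest day. No leaf markers with IDs of this annotation were in hand, so that the tissue was not checked. In bulk leaf RNA, fewer cells of a type and less RNA per cell cannot be told apart.

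A CPM of 1 stood for 11.8 to 22.3 sense counts in a library. Both GP replicate 1 libraries carried transcripts of other genotypes. In GP LN replicate 1, transcripts otherwise found in M5 alone stood at 46.1% of their M5 level (17 of 20 such genes above 0.5% of that level), and in GP HN replicate 1, transcripts otherwise found in M4 alone stood at 16.2% of their M4 level (17 of 17). The other 16 libraries reached at most 5.48%, in M5 LN replicate 1, where 3 of 19 M4 transcripts were above 0.5%. The library titled M4 HN replicate 4 is labelled with 0.5 mM nitrate, against its title, which was followed. Group means and orders use all libraries, and the values without these libraries are given beside the results that moved most.

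HORVU3Hr1G059060 gave most of the family's reads in every library and ranked 148 of 19021 by mean CPM. Levels here are CPM scaled by TMM (trimmed mean of M values) and are not per length, so that they compare libraries and not copies. In GP the level was 879, 737 and 769 CPM under HN (replicates 1, 2 and 4) and 669, 644 and 790.1 CPM under LN (replicates 1, 2 and 3). The HN and LN libraries of GP overlapped. In M4 it was 909.8, 895 and 1005 CPM under HN (replicates 1, 2 and 4) and 677, 589 and 932 CPM under LN (replicates 1, 3 and 4). LN replicate 4 of M4 lay within the HN range and the other LN libraries of M4 lay below it. In M5 it was 697, 653 and 683 CPM under HN and 569.5, 627 and 629 CPM under LN (replicates 1, 2 and 3). All M5 LN libraries thus lay below all M5 HN libraries, as in 6.61% of the tested genes. By group means, M4 HN stood first with 937 CPM ± 59.6 (SD, n = 3), followed by GP HN (795 ± 74.6), M4 LN (733 ± 178), GP LN (701 ± 78.2), M5 HN (678 ± 22.5) and M5 LN (609 ± 33.8). From GP HN to M5 HN each group overlapped its neighbour in this order.

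HORVU2Hr1G124400 was the second copy by reads and ranked 1691 by mean CPM. In GP it stood at 84.6, 59.0 and 66.6 CPM under HN and at 116 (replicate 1), 56.9 and 68.8 CPM under LN. The highest values in both GP groups were those of replicate 1, the libraries with transcripts of other genotypes, and the part of those transcripts in these values was not tested. Without replicate 1, the 4 GP libraries averaged 62.8 CPM ± 5.75 (SD), and all of them lay below every M4 and M5 library. The share of all genes for which this held was not counted. In M4 it stood at 107, 109.9 and 127 CPM under HN and at 107, 124 and 116 CPM under LN. In M5 it stood at 144, 119 and 104 CPM under HN and at 134, 139 and 136 CPM under LN. The 3 M4 LN libraries lay below the 3 M5 LN libraries, as in 15.2% of the tested genes, while the HN libraries of M4 and M5 overlapped.

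HORVU7Hr1G066450 was lower in every GP library than in any M5 library, as in 3.18% of the tested genes. Its GP levels were 12.2, 11.8 and 10.2 CPM under HN and 14.3, 9.77 and 11.1 CPM under LN. Its M4 levels were 23.0, 24.9 and 21.5 CPM under HN and 20.9, 12.96 and 22.5 CPM under LN. Its M5 levels were 22.2, 24.2 and 20.01 CPM under HN and 20.6, 23.3 and 28.2 CPM under LN. M4 LN replicate 3, at 12.96 CPM, was the only M4 or M5 library within the GP range, and GP LN replicate 1 was the highest GP library.

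**Figure D1:**
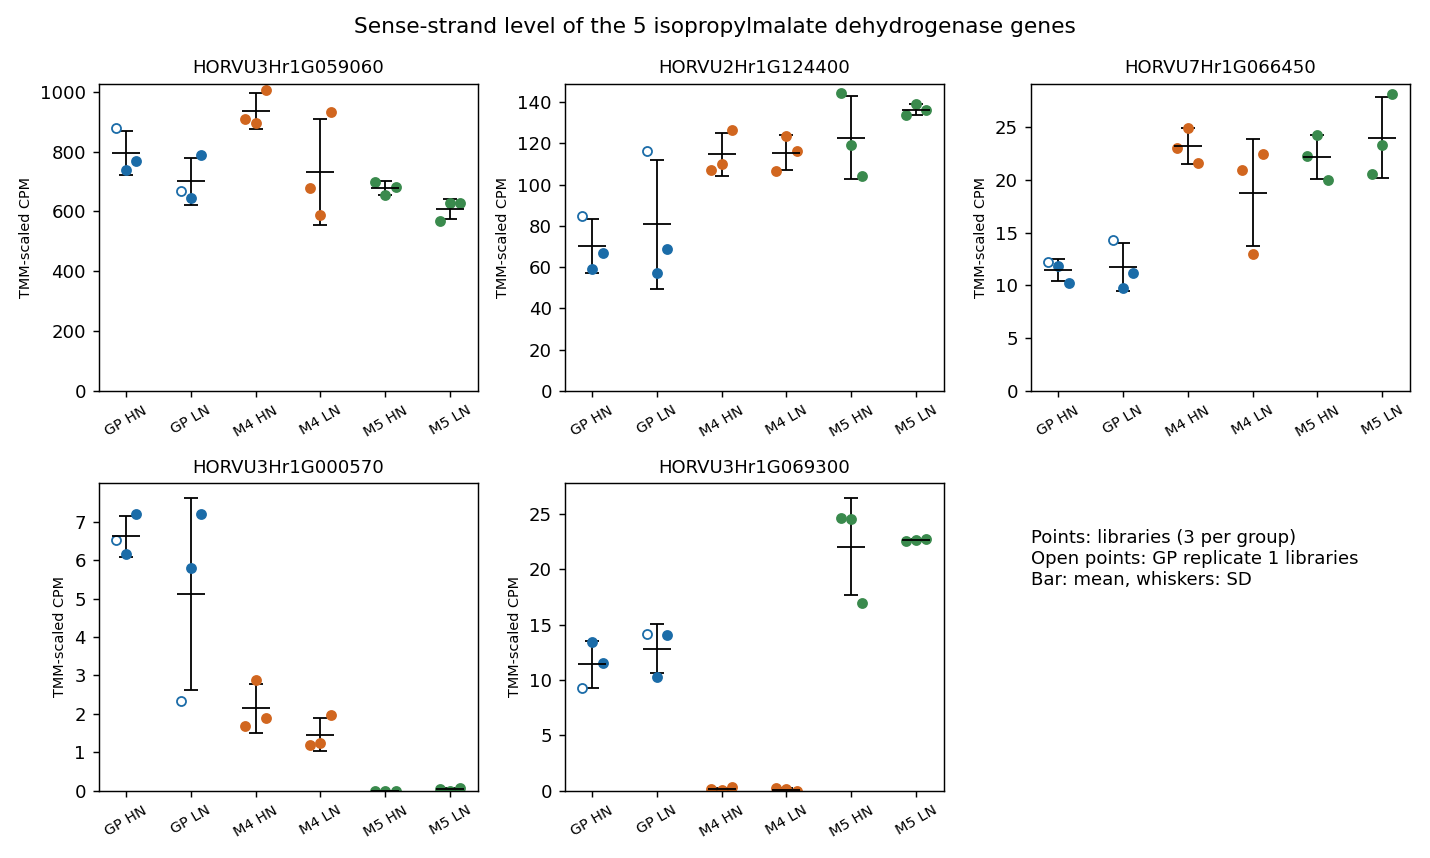
Level of each of the 5 genes in TMM-scaled CPM (vertical axes, each starting at 0, with a scale of its own) in the 6 groups of genotype and nitrate supply. Points are libraries, open points are the GP replicate 1 libraries, and the bar and whiskers are the mean and SD of 3 libraries. HORVU3Hr1G069300 stays near 0 in M4 and HORVU3Hr1G000570 near 0 in M5.

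HORVU3Hr1G069300 was nearly absent from M4. Its counts there were 3, 2 and 4 reads under HN and 4, 2 and 0 reads under LN, or 0 to 0.279 CPM. In GP it stood at 9.24, 13.4 and 11.6 CPM under HN and at 14.1, 10.3 and 14.1 CPM under LN. The lowest GP value belongs to HN replicate 1, which carried M4 transcripts at 16.2% of their own level, and their part in it was not tested. In M5 it stood at 24.6, 24.5 and 16.96 CPM under HN and at 22.5, 22.6 and 22.7 CPM under LN. The 3 genotypes did not overlap in any library. All GP libraries lay below all M5 libraries, as in 3.18% of the tested genes, while the filter had fixed the difference of M4. How many genes set all 3 genotypes apart was not counted. Over all libraries of a genotype, GP had 1371 reads and M4 15, a ratio of CPM of 93.8 (95% exact interval 56.6 to 168). The GP mean was 12.1 CPM with and 12.3 CPM without replicate 1. M5 had 2230 reads, 177 times the M4 level (interval 107 to 317). These intervals cover counting error only. Of the genes tested, 64 (0.336%) stood below 0.5 CPM in every M4 library and above 1 CPM in every other library, HORVU3Hr1G069300 among them.

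HORVU3Hr1G000570 was the copy with the fewest reads, and it was nearly absent from M5. The 3 M5 HN libraries held 0 reads each, and the M5 LN libraries held 1, 0 and 1. In GP it stood at 6.52, 6.16 and 7.19 CPM under HN and at 2.34, 5.79 and 7.21 CPM under LN. The value of 2.34 CPM belongs to GP LN replicate 1, in which M5 transcripts stood at 46.1% of their own level, and the part of that RNA in the value was not tested. In M4 it stood at 1.68, 2.87 and 1.88 CPM under HN and at 1.18, 1.24 and 1.95 CPM under LN. M4 lay between the other genotypes, and M4 HN replicate 2 alone reached the GP range, through GP LN replicate 1. With 3 counts over the M5 HN group taken as the floor, GP was at least 109.7-fold higher than M5 under HN and M4 at least 36.6-fold higher. Under LN, where M5 held 2 reads in all, the ratio to M5 was 115 in GP (95% exact interval 31.6 to 956) and 34.5 in M4 (9.27 to 289.6). Without replicate 1 the GP ratio under LN was 152 (41.6 to 1264), and the GP LN mean was 6.50 CPM in place of 5.11 CPM. Of the genes tested, 52 (0.273%) stood below 0.5 CPM in every M5 library and above 1 CPM in every other library, HORVU3Hr1G000570 among them. Without both GP replicate 1 libraries there were 68 such genes for M5 (0.357%) and 64 for M4, and each list still held its member.

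**Figure D2:**
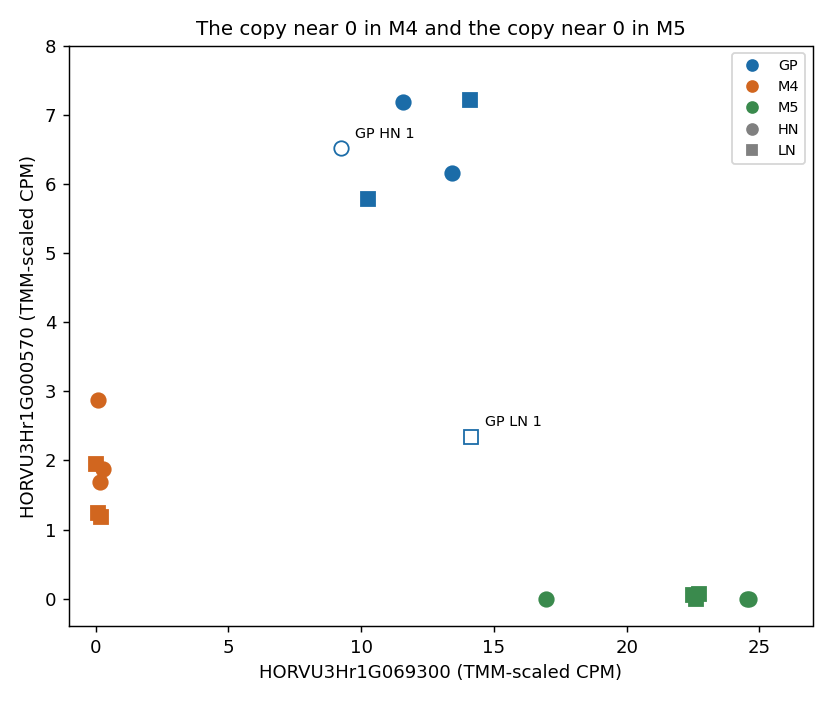
HORVU3Hr1G069300 (horizontal axis) and HORVU3Hr1G000570 (vertical axis) in TMM-scaled CPM, 1 point per library, circles for HN and squares for LN, with the GP replicate 1 libraries as open symbols. M4 libraries lie along the left edge (at most 0.279 CPM of HORVU3Hr1G069300), M5 libraries along the bottom (at most 0.0605 CPM of HORVU3Hr1G000570), and GP libraries hold both copies, with GP LN replicate 1 at 2.34 CPM below the other GP libraries.

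The share of the family's reads that each copy gave is described by genotype without a test, since the members were chosen with the levels known. HORVU3Hr1G059060 gave 87.7% ± 2.77 (SD, n = 6 libraries) of the reads in GP, 85.5% ± 2.49 in M4 and 78.6% ± 2.39 in M5. Without replicate 1 its share in GP was 88.8% ± 0.228 (n = 4), and each of these libraries (88.6 to 89.1%) lay above every M4 library (81.0 to 87.3%) and every M5 library (76.3 to 82.9%). HORVU2Hr1G124400 gave 8.86% ± 2.67 in GP, 12.2% ± 2.60 in M4 and 15.9% ± 1.94 in M5. Its GP share was 7.60% ± 0.317 without replicate 1, and GP LN replicate 1 alone stood at 14.2%. HORVU7Hr1G066450 gave 1.36% ± 0.207 in GP (1.30% without replicate 1), 2.16% ± 0.313 in M4 and 2.82% ± 0.367 in M5. The near-absent copies complete the picture. HORVU3Hr1G069300 gave 1.44% ± 0.285 in GP (1.49% without replicate 1), 0.0139% ± 0.00911 in M4 and 2.73% ± 0.349 in M5. HORVU3Hr1G000570 gave 0.688% ± 0.206 in GP (0.796% without replicate 1), 0.183% ± 0.0477 in M4 and 0.00238% ± 0.00369 in M5. GP libraries thus held reads of all 5 copies, while a different copy stood near 0 in M4 and in M5.

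The family total was 894 CPM ± 86.2 in GP HN, 811 ± 82.6 in GP LN, 1077 ± 68.2 in M4 HN, 869 ± 181 in M4 LN, 845 ± 37.9 in M5 HN and 792 ± 39.2 in M5 LN (SD, n = 3 each). Without replicate 1 it was 846 CPM in GP HN and 809 CPM in GP LN (n = 2 each), and without replicate 4 it was 1037 CPM in M4 HN. It follows HORVU3Hr1G059060, which gives most of it. The 4 copies other than HORVU3Hr1G059060 summed to 105 CPM ± 22.9 in GP (92.5 ± 7.87 without replicate 1), 138 ± 7.41 in M4 and 175 ± 18.4 in M5. Among the reads of these 4 copies, HORVU2Hr1G124400 gave 65.3 to 79.1% in the libraries of GP, 79.8 to 89.6% in those of M4 and 71.0 to 75.6% in those of M5. The 4 GP libraries other than replicate 1 lay at 65.3 to 69.7%, below every M5 library.

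**Figure D3:**
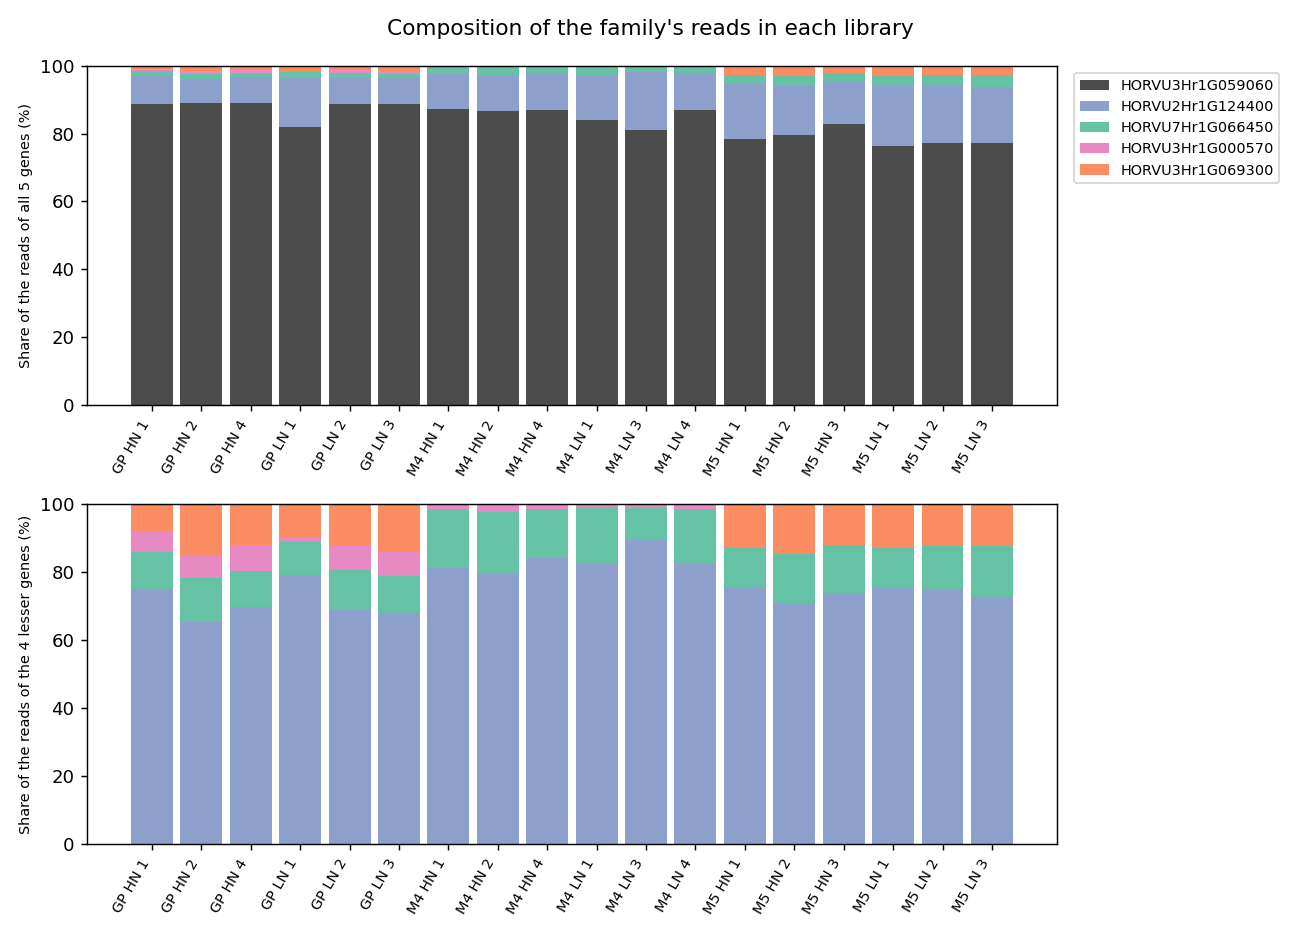
Share of reads by copy in each of the 18 libraries, in percent of the reads of all 5 genes and, in a panel of its own, of the 4 genes other than HORVU3Hr1G059060. Bars are single libraries named by genotype, supply and replicate. The HORVU3Hr1G059060 share runs from 76.3% (M5 LN 1) to 89.1% (GP HN 2), and GP LN 1 stands apart from the other GP libraries with 14.2% of HORVU2Hr1G124400.

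Under HN, the comparison on which the genes had been selected, the fitted log2 fold change (log2 FC) of M4 from GP and M5 averaged was above 0 in 4 copies and below 0 in HORVU3Hr1G069300. This comparison chose the members, so that the values carry no test. The results text of the study names HORVU7Hr1G066450 as lower in M4, whereas it was higher in the fit here. Its discussion names HORVU3Hr1G069300 as lower, as in the fit here. The sizes that the study lists for HORVU3Hr1G059060 and HORVU3Hr1G000570 also differ from those of the fit here. Close sizes stand under other IDs. The size listed for HORVU3Hr1G059060 is close to that of HORVU3Hr1G000570 in the fit here. That listed for HORVU3Hr1G000570 is close to the fitted value of HORVU7Hr1G066450. The size listed for HORVU7Hr1G066450 is close to the fitted value of HORVU3Hr1G069300. Whether IDs were exchanged was not tested. All values that follow were fitted here. The log2 FC was 0.31 for HORVU3Hr1G059060, whose 3 M4 HN libraries (895 to 1005 CPM) all lay above the 6 HN libraries of GP and M5 (653 to 879 CPM), as in 5.89% of the tested genes. It was 0.30 for HORVU2Hr1G124400 and 0.52 for HORVU7Hr1G066450, and in both M4 overlapped M5 and lay above all GP HN libraries. How many genes set M4 and GP apart under HN was not counted. Under LN, M4 lay wholly above GP in 11.6% of the tested genes and wholly below it in 11.9%. It was 3.34 for HORVU3Hr1G000570, although all M4 HN libraries (1.68 to 2.87 CPM) lay below all GP HN libraries (6.16 to 7.19 CPM). The average on the log scale takes in the 0 counts of M5 there, so that this fitted value depends on the prior count. It was -6.58 for HORVU3Hr1G069300, with all M4 HN libraries below the others, as in 4.84% of the tested genes. Without M4 HN replicate 4, the library with the deviating treatment label, the log2 FC was 0.34, 0.23, 0.58, 3.53 and -7.04 in the order in which the genes were named first. Without both GP replicate 1 libraries it was 0.37, 0.37, 0.56, 3.37 and -6.66. The median over the 5 genes was 0.31, beside -0.0035 over all genes tested.

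Whether nitrate supply changed the family was asked within each genotype and on average. No member passed the edgeR quasi-likelihood test (Benjamini-Hochberg adjusted p under 0.05 over all genes tested) in GP, M4, M5 or their average. The tested genes that passed made up 0% for GP, 0% for M4, 0.0631% for M5 and 0.0315% for the average. At an unadjusted p under 0.05, there were 0 members for GP, 1 for M4, 0 for M5 and 1 for the average, against 5.5, 7.79, 7.39 and 12.8% of all genes. DESeq2 and limma-voom called 0 members in each, and DESeq2 called 28 genes in GP and 20 in M4. The member at an unadjusted p under 0.05 was HORVU3Hr1G059060 in both cases. Its log2 FC of LN against HN was -0.12 ± 0.15 (SE) in GP and -0.15 ± 0.14 in M5. In M4 it was -0.38 ± 0.14, and -0.42 ± 0.18 without M4 HN replicate 4. Averaged over the genotypes it was -0.22 ± 0.083 (edgeR adjusted p = 0.332), with a mean level of 681 CPM in 9 LN libraries and 803 CPM in 9 HN libraries. The sign in GP turned without both GP replicate 1 libraries (log2 FC 0.06 ± 0.18), and the average then was -0.16 ± 0.089. For the other copies the log2 FC of LN against HN lay between -0.54 and 0.23 in GP. It lay between -0.60 and -0.01 in M4 (between -0.83 and 0.08 without M4 HN replicate 4). There HORVU3Hr1G069300 was left out for its counts of 0 to 4 (fitted -0.63 ± 0.73). In M5 the log2 FC lay between 0.04 and 0.17, with HORVU3Hr1G000570 left out for its counts of 0 and 1 (fitted 2.81 ± 1.48). The 5 members had a median of 0.08 for GP, -0.38 for M4, 0.13 for M5 and -0.02 for the average, and over all genes it lay between -0.01 and 0.02. These medians take in the copies that were left out above in M4 and in M5 for their low counts. The M4 comparison holds the M4 HN libraries on which the genes had been selected. The sign of its values and its median are therefore a description. The HN libraries of GP and M5 also served in that selection.

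The response of M4 to nitrate was also set against that of GP and M5. No member passed, as against 0.00526% of all genes (1 gene), and an unadjusted p under 0.05 was reached by 0 members and 4.54% of all genes. The fitted differences were below 0 for all 5 members (median -0.38, all genes -0.02), which is a description only. They contain the HN comparison on which the genes had been selected, so that their sign is no test. Those of HORVU3Hr1G000570 and HORVU3Hr1G069300 also rest on counts near 0 in M5 and in M4. For HORVU3Hr1G059060 the difference was -0.25 ± 0.17 and for HORVU7Hr1G066450 -0.38 ± 0.26. Between the spring harvest (replicates 3 and 4) and the autumn harvest (replicates 1 and 2), no member and no gene passed the edgeR test (0%), with 0 members and 4.65% of all genes at an unadjusted p under 0.05, and DESeq2 called 10 genes and 0 members.

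M4 was set against each of the other genotypes in the LN libraries, on which the genes had not been selected. Against GP and M5 averaged, none of the 3 members that were free to vary passed the test, while 10.2% of all genes passed, 5.78% higher and 4.45% lower. At an unadjusted p under 0.05 there were 0 of the 3, against 25.8% of all genes, and DESeq2 and limma-voom called 0. For HORVU3Hr1G059060 the difference was 0.06 ± 0.13 (edgeR adjusted p = 0.795), for HORVU2Hr1G124400 0.09 ± 0.18 (0.788) and for HORVU7Hr1G066450 0.13 ± 0.19 (0.704). The median over these 3 was 0.09, beside -0.01 over all genes. For HORVU3Hr1G069300, which passed the filter through GP and M5 only, the fitted log2 FC was -7.34, and its near-absence in M4 was already known from the HN libraries. For HORVU3Hr1G000570, near 0 in M5, it was 1.61, an average of opposite differences from GP and from M5.

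Against GP under LN, 1 of 4 members was lower in M4 by the test, while 6.26% of all genes passed, 2.85% higher and 3.41% lower. At an unadjusted p under 0.05 there were 3 of the 4, against 19.6% of all genes. HORVU3Hr1G000570 had a log2 FC of -1.71 ± 0.41 (edgeR adjusted p = 0.0318), and its 3 M4 libraries lay below the 3 GP libraries, as in 11.9% of all genes. This call rests on few libraries. It was lost when any 1 of 7 libraries was left out (GP HN replicate 2 or 4, GP LN replicate 2 or 3, M4 HN replicate 1, or M4 LN replicate 1 or 3), with an edgeR adjusted p of 0.0507 to 0.220, and it was kept without both GP replicate 1 libraries (log2 FC -2.08 ± 0.42, edgeR adjusted p = 0.0159). HORVU2Hr1G124400 did not pass with all libraries (0.49 ± 0.20, edgeR adjusted p = 0.197) and was higher in M4 without GP LN replicate 1 (0.79 ± 0.18, edgeR adjusted p = 0.0176) and without both GP replicate 1 libraries (0.81 ± 0.16, edgeR adjusted p = 0.0105). HORVU7Hr1G066450 did not pass either (0.66 ± 0.22, edgeR adjusted p = 0.105), but was higher in M4 without M4 LN replicate 3 (0.95 ± 0.20, edgeR adjusted p = 0.0216) and without the replicate block (0.68 ± 0.19, edgeR adjusted p = 0.0393). HORVU3Hr1G059060 stood at -0.04 ± 0.15 (edgeR adjusted p = 0.930). The median over these 4 was 0.23, and that over all genes was -0.02. HORVU3Hr1G069300, left out of the count, had a fitted log2 FC of -6.93.

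Against M5 under LN, none of the 3 members free to vary passed, while 11.7% of all genes passed, 6.39% higher and 5.32% lower. At an unadjusted p under 0.05 there were 0 of the 3, against 27.1% of all genes, and DESeq2 and limma-voom called 0. HORVU2Hr1G124400 (-0.31 ± 0.20), HORVU7Hr1G066450 (-0.39 ± 0.22) and HORVU3Hr1G059060 (0.17 ± 0.15) did not pass. The median over these 3 was -0.31, and that over all genes was -0.01. As a description, HORVU3Hr1G000570 had 86 reads in M4 and 2 in M5, and HORVU3Hr1G069300 had a fitted log2 FC of -7.75. This comparison shares the M4 LN libraries with the one against GP.

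Between GP and M5, averaged over HN and LN, 3 of 4 members were lower in GP and none was higher, while 12.5% of all genes passed, 7.08% higher and 5.41% lower. At an unadjusted p under 0.05 there were also 3 of the 4, against 23% of all genes. Lower in GP were HORVU7Hr1G066450 (log2 FC -1.03 ± 0.15, edgeR adjusted p = 6.03e-04), HORVU2Hr1G124400 (-0.83 ± 0.14, edgeR adjusted p = 0.00174) and HORVU3Hr1G069300 (-0.90 ± 0.21, edgeR adjusted p = 0.0116). HORVU7Hr1G066450 and HORVU3Hr1G069300 were lower in all 6 GP libraries than in any M5 library, as in 3.18% of all genes. The call of HORVU3Hr1G069300 was lost without GP HN replicate 1 (-0.75 ± 0.24, edgeR adjusted p = 0.0697) and without both GP replicate 1 libraries (-0.76 ± 0.26, edgeR adjusted p = 0.0847). Without both, HORVU2Hr1G124400 stood at -1.06 ± 0.12 and HORVU7Hr1G066450 at -1.13 ± 0.18, and their calls were kept. HORVU3Hr1G059060 had a log2 FC of 0.18 ± 0.10 and did not pass (edgeR adjusted p = 0.318). The median over these 4 was -0.86, beside 0.0028 over all genes. HORVU3Hr1G000570, with 649 reads in GP and 2 in M5, was left out of the count.

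**Figure D4:**
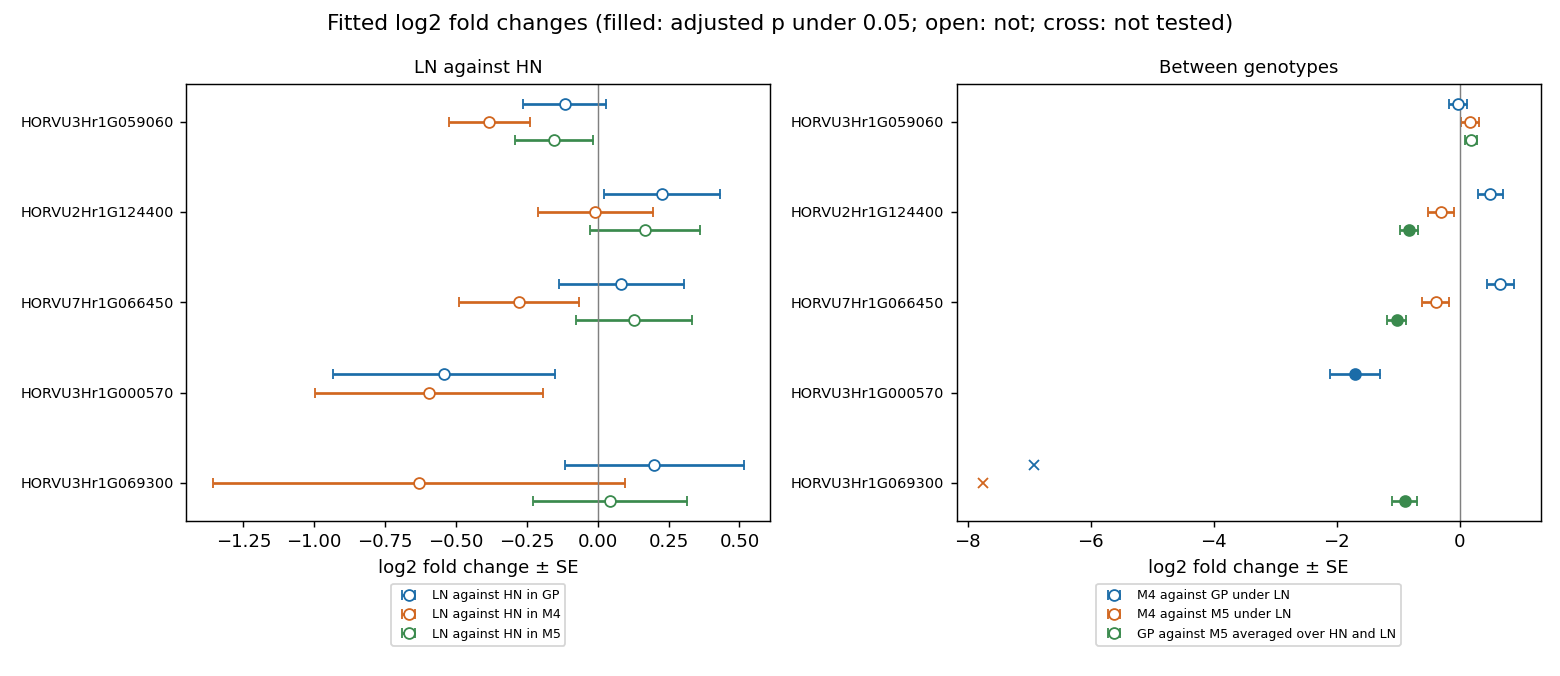
Fitted log2 FC (horizontal axes, points with SE bars) of the 5 genes for LN against HN in each genotype (left) and between genotypes (right), filled where the edgeR adjusted p was under 0.05, with a cross and no SE for a copy whose difference the filter had fixed. HORVU3Hr1G000570 is not drawn against M5 or within M5, where its counts were 0 or 1. No LN against HN point is filled, and the crosses of HORVU3Hr1G069300 lie at -6.93 and -7.75 in M4 against GP and M5.

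The 5 other genes that the study named with branched-chain amino acid synthesis were also followed. They are 2 branched-chain transaminases, which make the last step of synthesis and the first of breakdown, and 3 threonine aldolases. Threonine aldolases split threonine into glycine and acetaldehyde, and the study describes them as competing with that synthesis for threonine. The study named all 5 genes on the same HN comparison. None passed the test of LN against HN in any genotype or on average, where 0 to 0.0631% of all genes passed. Under LN, 1 of 5 was lower in M4 than in GP and M5 averaged (the aldolase HORVU4Hr1G085690, log2 FC -0.80 ± 0.16, edgeR adjusted p = 0.00636), beside 4.45% of all genes. Against GP, 1 of 5 was higher in M4 (the aldolase HORVU1Hr1G046630, 1.27 ± 0.26, edgeR adjusted p = 0.0107), beside 2.85% of all genes. Against M5 under LN, the aldolases HORVU2Hr1G097910 (-0.60 ± 0.15, edgeR adjusted p = 0.0240) and HORVU4Hr1G085690 (-0.99 ± 0.18, edgeR adjusted p = 0.00333) were lower in M4, 2 of 5 beside 5.32% of all genes. Between GP and M5, 3 of 5 were lower in GP, beside 5.41% of all genes, the transaminase HORVU3Hr1G032400 (-3.09 ± 0.65, edgeR adjusted p = 0.00679) and the aldolases HORVU1Hr1G046630 (-1.29 ± 0.18, edgeR adjusted p = 3.89e-04) and HORVU2Hr1G097910 (-0.51 ± 0.11, edgeR adjusted p = 0.00606). HORVU3Hr1G032400 ranged from 3.51 to 27.3 CPM in GP HN and from 4.43 to 80.9 CPM in GP LN, with the highest value of each in replicate 1, against 84.5 to 143 CPM in M5. Leaving out both GP replicate 1 libraries, tried for these genes after the data were seen, kept all these calls and added this transaminase, higher in M4 under LN than in GP (4.63 ± 0.27, edgeR adjusted p = 2.61e-06) and than in GP and M5 averaged (2.42 ± 0.18, edgeR adjusted p = 1.37e-05). Against M5 under LN this transaminase did not pass (0.20 ± 0.19, edgeR adjusted p = 0.540), so that the averaged difference came from GP. In that setting 7.81% of all genes passed against GP and 11.2% against both averaged, in either direction. The log2 FC of this transaminase for GP against M5 was then -4.63 ± 0.19. Without M4 HN replicate 4 all calls were kept and none was added.

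Genes that followed each member most closely over the 18 libraries were found by Pearson correlation of log2(CPM + 0.5), which is given as a description. The libraries share genotypes, so that any gene with a similar difference between genotypes correlates. For HORVU3Hr1G069300, HORVU6Hr1G006110 (r = 0.990) and HORVU7Hr1G021110 (r = 0.988) came first, with at most 0.334 and 0.0477 CPM in M4 libraries, and 155 genes had r above 0.9. For HORVU3Hr1G000570 these were HORVU4Hr1G000310 (r = 0.987) and HORVU0Hr1G023640 (r = 0.979), with at most 0.0816 and 0 CPM in M5 libraries, and 92 genes had r above 0.9. Both near-absent copies thus had company in the same libraries. Closest to HORVU2Hr1G124400 were HORVU7Hr1G054890 (r = 0.957) and HORVU5Hr1G051440 (r = 0.954), and HORVU7Hr1G054890 ranged from 0 to 18.5 CPM in GP libraries, with M4 libraries at 14.0 to 21.6 CPM and M5 libraries at 21.7 to 35.1 CPM. HORVU5Hr1G105790 (r = 0.955) and HORVU5Hr1G010730 (r = 0.952) were closest to HORVU7Hr1G066450. HORVU3Hr1G059060 had no gene above 0.9, and its closest were HORVU2Hr1G116190 (r = 0.862) and HORVU2Hr1G010520 (r = 0.855). Among the members themselves, HORVU2Hr1G124400 and HORVU7Hr1G066450 correlated with r = 0.82 over the libraries and 0.33 once group means were removed, and with 0.85 and -0.14 in the 16 libraries other than GP replicate 1. For the genes named as closest, r in these 16 libraries was 0.851 to 0.991.

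The genes with the nearest ID numbers on the same chromosome were looked at for each member, 10 IDs each, of which 8, 7, 6, 5 and 8 were tested in the order in which the members were named first. Of all genes, 10.2% passed for M4 under LN against GP and M5 averaged, 5.78% higher. Near HORVU3Hr1G000570, 2 of the 5 tested passed, HORVU3Hr1G000590 (2.74 ± 0.47, edgeR adjusted p = 0.00269) and HORVU3Hr1G000600 (1.69 ± 0.40, edgeR adjusted p = 0.0179), both higher in M4. They averaged 7.18 and 3.35 CPM in M4, 0.887 and 1.31 CPM in GP, and 0.968 and 0.769 CPM in M5. Outside M4 they thus stood near the bound of the filter, so that these calls are a description. Near HORVU3Hr1G069300 the neighbour HORVU3Hr1G069320 averaged 2.18 CPM in M4, 0.499 CPM in GP and 0.266 CPM in M5. With means below 1 CPM in GP and M5, it had passed the filter mainly through M4. It is among the 8 tested near that member, but its call is not read as a result. The other 7 tested near that member did not pass. Near the other 3 members none passed. The IDs stand for the order on the genome of the cultivar Morex, and the distances between them were not used here.

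Reads on the opposite strand of the members were few. HORVU3Hr1G059060 had 45 antisense reads in all libraries together (0.0185% of its reads), HORVU2Hr1G124400 27 (0.0774%), HORVU7Hr1G066450 7 (0.116%) and the 2 near-absent copies 0. Over all genes, antisense reads made up 5.55 to 6.17% of the reads on genes in a library.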

How the data were processed

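Stranded mRNA libraries were sequenced as single reads. The authors trimmed reads with Trimmomatic 0.36, filtered rRNA with sortMeRNA 2.1, and mapped to the Morex genome IBSC_v2 (annotation release 48) with STAR 2.7.3a, which also counted them. Deposited are the authors' raw counts per gene, whole and not normalized, for either strand and each strand. The reverse-strand (sense) counts of 43050 genes were used. Libraries held 15.3 to 29.1 × 1000000 reads, 11.8 to 22.3 × 1000000 of them sense reads on genes. Of all reads, 14.9 to 16.7% mapped to several places, 1.66 to 2.53% did not map, 5.05 to 5.92% fell outside genes and 0.0047 to 0.010% were ambiguous, and these stayed out of library sizes and tests. Since reads with several places count for no gene, near-identical copies of a family have uncertain values. A copy that differs in sequence from Morex can lose reads in mapping, which cannot be told apart from a lower transcript level.

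edgeR 4.0.16 (R 4.3.3, TMM) was run on the 19021 genes with a CPM above 1 in 3 or more libraries, with group and replicate number in the model, as in the methods of the study, and p-values of the quasi-likelihood test were adjusted by Benjamini-Hochberg over all of them (called under 0.05). SE is |log2 FC| divided by the root of F. The pairing by number comes from the labels, in which a number has a harvest day of its own (no date for GP HN replicate 1). Deviations from group means had a median correlation of 0.0027 in 34 pairs of libraries with equal numbers (8 above 0.1) and -0.0016 in 101 pairs with unequal numbers (24 above 0.1). No library was a copy of another (chi-square per degree of freedom at least 14.4). Ratios of counts have exact 95% binomial intervals. Transcripts of 1 genotype were those with a mean above 5 CPM there and below 0.05 CPM elsewhere. The bounds of 0.5 and 1 CPM for near-absent genes were chosen after the values were seen. Alternatives were no replicate block, edgeR's likelihood ratio test, DESeq2 1.42.0, limma-voom (limma 3.58.1), RLE, no filter, filterByExpr, both strands counted, and leaving out each library or both GP replicate 1 libraries. The scripts were tested on simulated data.

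The members and the gene lists were chosen with earlier results of these data known. Named are the members and the 5 other genes that the study names with branched-chain amino acid synthesis (values where called). Also named are the 2 genes that correlate best with each member. Of the 10 nearest IDs, those called for M4 under LN against GP and M5 averaged are named. Gene names are those of the study. Sequences, coordinates and gene lengths of these IDs were not used here.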

Additional observations from a re-analysis of the deposited data

Results flagged for a closer look

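Antisense reads of the members entered no comparison. HORVU3Hr1G059060 had up to 6 of them in a library (GP LN replicate 1) and HORVU2Hr1G124400 up to 4 (M5 HN replicate 3), each above the 3 counts that a count of 0 allows. They stand beside 14594 and 1230 sense reads of the same genes in these libraries.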

How the results depend on the processing

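The low counts of HORVU3Hr1G000570 (0 to 128 reads) and the 3 libraries per group limit what could be shown. The counts of members called given here include HORVU3Hr1G069300 in M4 and HORVU3Hr1G000570 against M5, whose differences the filter on low counts had fixed. Without the replicate block, 2 members were called for M4 under LN against GP and M5 averaged in place of 1, as with the likelihood ratio test (2), HORVU3Hr1G000570 being added, and HORVU7Hr1G066450 was added against GP, and the block changed no other call of a member. Without the block the log2 FC of HORVU2Hr1G124400 for LN in M4 was 0.011 (-0.0077 with it) and that of HORVU3Hr1G059060 for M4 against GP under LN 0.064 (-0.036 with it). The harvest comparison cannot be made without the block. With filterByExpr the first of these was 0.0038. With limma-voom HORVU3Hr1G000570 had -0.076 for the average LN response (0.56 in edgeR, a value that rests on the prior count in M5) and 2.31 for M4 under HN, where DESeq2 gave 2.97. Without both GP replicate 1 libraries, the GP response to LN turned in HORVU3Hr1G059060 (0.062), HORVU7Hr1G066450 (-0.016), HORVU3Hr1G000570 (0.029) and HORVU3Hr1G069300 (-0.12). None of these responses was called in any fit.

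Leaving out each library in turn gave 1 to 2 members called for M4 under LN against GP and M5 averaged, 1 to 3 against GP, and 3 to 4 for GP against M5. These counts again hold HORVU3Hr1G069300 in M4 and HORVU3Hr1G000570 against M5, where the filter had fixed the difference. Of the members free to vary, 0 of 3, 1 of 4 and 3 of 4 passed with all libraries. Of all genes, 10.2, 6.26 and 12.5% passed. Under HN the log2 FC was 3.10 to 3.53 for HORVU3Hr1G000570 and -7.04 to -6.22 for HORVU3Hr1G069300. The sign of small values turned. For LN in GP these were HORVU3Hr1G059060 (-0.22 to 0.031), HORVU2Hr1G124400 (-0.10 to 0.43), HORVU7Hr1G066450 (-0.084 to 0.26) and HORVU3Hr1G069300 (-0.10 to 0.53). For LN in M4 this was HORVU2Hr1G124400 (-0.15 to 0.14). For LN in M5 these were HORVU7Hr1G066450 (-0.13 to 0.31) and HORVU3Hr1G069300 (-0.15 to 0.15), and for the average LN response HORVU7Hr1G066450 (-0.12 to 0.052) and HORVU3Hr1G069300 (-0.42 to 0.090). For M4 under LN against GP and M5 averaged these were HORVU3Hr1G059060 (-0.073 to 0.25), HORVU2Hr1G124400 (-0.11 to 0.25) and HORVU7Hr1G066450 (-0.0046 to 0.43), and against GP alone HORVU3Hr1G059060 (-0.17 to 0.15).

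With HORVU3Hr1G059060 left out of the total, the shares were 71.0% for HORVU2Hr1G124400, 11.2% for HORVU7Hr1G066450, 5.97% for HORVU3Hr1G000570 and 11.8% for HORVU3Hr1G069300 in GP. In the same order they were 83.4, 15.2, 1.30 and 0.0964% in M4, and 74.0, 13.2, 0.0102 and 12.8% in M5. Over all genes, the calls differed most between tools for LN against HN, with 12 in M5 (4 to 199 over the other fits, the highest in DESeq2), 6 in the average (1 to 287) and 0 in GP and M4 (up to 28 and 20). For M4 under LN they were 1191 against GP (1171 to 1787), 2228 against M5 (2046 to 3084) and 1946 against both averaged (1847 to 2838), and for GP against M5 they were 2376 (2334 to 2862). Leaving out a library gave 711 to 1596, 1201 to 2498, 1057 to 2390 and 1666 to 2815 calls in these. Of all values recomputed, 1691 were classed as kept, having held their direction and side of the threshold or moved by less than the spread. A count of members called was also classed as kept after a small change, as for GP against M5 (4 with all libraries, 3 to 4 with 1 left out). Another 27 values moved further, 36 turned in sign, 8 gained a call and 9 lost it. The cause of these changes was not tested.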
